A study of Homo sapiens with 16 samples.

Results

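The long non-coding RNA genes MIR17HG, MIR22HG, MIR155HG and DLEU2, which carry microRNAs (miRs) within their transcripts, are described here in 2 human multiple myeloma cell lines. The members were taken by symbol from the table of read counts, in which 4 of 4 were present among 23354 genes, and all 4 were among the 14215 genes that passed the filter on low counts and were tested. MM1S cells are glucocorticoid sensitive and MM1R cells glucocorticoid resistant, and each line had received vehicle, 0.1 μM TAK-981, 1 μM dexamethasone (Dex) or the combination of both drugs (combo) for 48 h. TAK-981 inhibits the E1 enzyme that starts the attachment of SUMO to proteins, and Dex is a glucocorticoid used in myeloma treatment. Total RNA depleted of ribosomal RNA was sequenced, with 2 libraries in each of the 8 groups and 16 in all. The labels give duplicates without saying whether they came from separate cultures, so p-values measure the spread between these libraries, which may be technical.

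A miR host gene is transcribed as a long primary RNA, from which nuclear processing enzymes cut a hairpin that is then matured into a short RNA of about the length of the ones printed here. The mature miR pairs with messenger RNAs through its seed, the stretch of bases 2 to 8, and lowers their stability or translation. MIR17HG carries the miR-17-92 cluster, an oncogenic cluster in lymphoid cells and a classical target of MYC. MIR155HG (also called BIC) carries miR-155, which is active in germinal centre B cells and induced by inflammatory signals. DLEU2 carries miR-15a and miR-16, tumor suppressors that are often lost with the 13q14 deletion in chronic lymphocytic leukemia and myeloma. MIR22HG carries miR-22, and its transcript is known to respond to cellular stress. The counts below are reads on the host gene rows, and mature miRs were not measured by them.

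The mature miRs are printed to show which hosts produce RNAs with a shared seed, with the seed in capitals. The sequences are those of RefSeq. MIR17HG is the host of the following 6:
hsa-miR-17-5p: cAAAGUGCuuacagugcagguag
hsa-miR-20a-5p: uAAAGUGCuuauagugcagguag
hsa-miR-18a-5p: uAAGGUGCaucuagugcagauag
hsa-miR-19a-3p: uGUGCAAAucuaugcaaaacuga
hsa-miR-19b-3p: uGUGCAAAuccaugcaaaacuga
hsa-miR-92a-3p: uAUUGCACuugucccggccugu

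DLEU2 is the host of a pair with a common seed, and MIR22HG and MIR155HG of 1 each:
hsa-miR-15a-5p: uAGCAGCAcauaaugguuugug
hsa-miR-16-5p: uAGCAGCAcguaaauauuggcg
hsa-miR-22-3p: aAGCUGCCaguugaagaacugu
hsa-miR-155-5p: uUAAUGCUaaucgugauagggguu

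One miR from another host is shown for comparison, because the study followed miR-25 and its seed is that of miR-92a:
hsa-miR-25-3p: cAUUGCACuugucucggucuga

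Thus miR-17-5p and miR-20a-5p shared a seed, as did miR-19a-3p and miR-19b-3p, miR-15a-5p and miR-16-5p, and miR-92a-3p and miR-25-3p, the last pair made by different host genes. The seeds of miR-22-3p and miR-155-5p each belonged to 1 human mature miR name in the RefSeq table, while the seed of miR-17-5p belonged to 8 names and that of miR-16-5p to 7.

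The hosts differed in where the hairpin lies. By RefSeq positions and GENCODE 29 transcripts on GRCh38, the 6 hairpins of MIR17HG lie from 2.918 to 3.627 kb after the start of the gene, within an exon of 2 of its 3 transcripts and within an intron of the other. The miR-22 hairpin is exonic in 19 of 19 MIR22HG transcripts and the miR-155 hairpin in 1 of 1 MIR155HG transcript, 2.223 and 11.835 kb after the start. The miR-15a and miR-16 hairpins lie 76.34 and 76.48 kb into DLEU2, intronic in 6 of 8 transcripts and exonic in 0. In the count table, whose build per the submitters' processing notes is hg19, MIR17HG lies at chr13:92000074-92006829 on the plus strand, MIR22HG at chr17:1614798-1619566 on the minus strand, MIR155HG at chr21:26934457-26947480 on the plus strand and DLEU2 at chr13:50556688-50699677 on the minus strand.

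Total counts per library ran from 15707587 to 24796539, with a median of 20268927. Levels are given as CPM, the read count divided by the scaled library total and set to a common depth. The labels call both lines B lymphoblast. Of the plasma cell markers checked, 7 of 8 were above 10 CPM in every library, while the summed level of the B cell markers was at most 0.557 CPM that of the T cell markers at most 5.33 CPM, of myeloid markers 0.543 CPM and of stroma markers 1.99 CPM. The erythroid markers summed to between 1.30 and 12.4 CPM, and the part of these cells in the results was not tested. In every group the replicates lay further apart than sampling noise, with a chi-square over its degrees of freedom of 2.11 or more, and each library was counted on its own. The widest gaps between replicates were in the TAK-981 and Dex groups of MM1S, at 21.7 and 19.5.

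Of the 4 host genes, 3 were well covered and 1 was near the limit of detection. MIR17HG had from 407 to 809 counts per library, DLEU2 from 197 to 622 and MIR22HG from 86 to 187, whereas MIR155HG had from 2 to 12. Per kilobase of exonic length in the table, the level in vehicle-treated MM1S cells was 4.23 ± 0.0045 CPM per kb for MIR17HG (SD, n = 2), 3.72 ± 0.28 for DLEU2, 2.09 ± 0.062 for MIR22HG and 0.280 ± 0.10 for MIR155HG. In vehicle-treated MM1R cells the order was the same, at 4.45 ± 0.11, 3.71 ± 0.31, 1.68 ± 0.21 and 0.337 ± 0.00067 CPM per kb. By CPM per kb in vehicle-treated MM1S cells, 38.4% of the tested genes lay below MIR17HG and 10.8% below MIR155HG, and DLEU2 (36.1%) and MIR22HG (28.3%) fell in between. The coefficient of variation across the 8 group means was 24.0% for MIR17HG, 28.0% for MIR22HG, 27.9% for MIR155HG and 30.0% for DLEU2. The variation between replicates was smaller for MIR17HG (7.11%), MIR22HG (8.30%) and DLEU2 (13.9%), but for MIR155HG it was 31.8%, larger than that across groups.

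**Figure D1:**
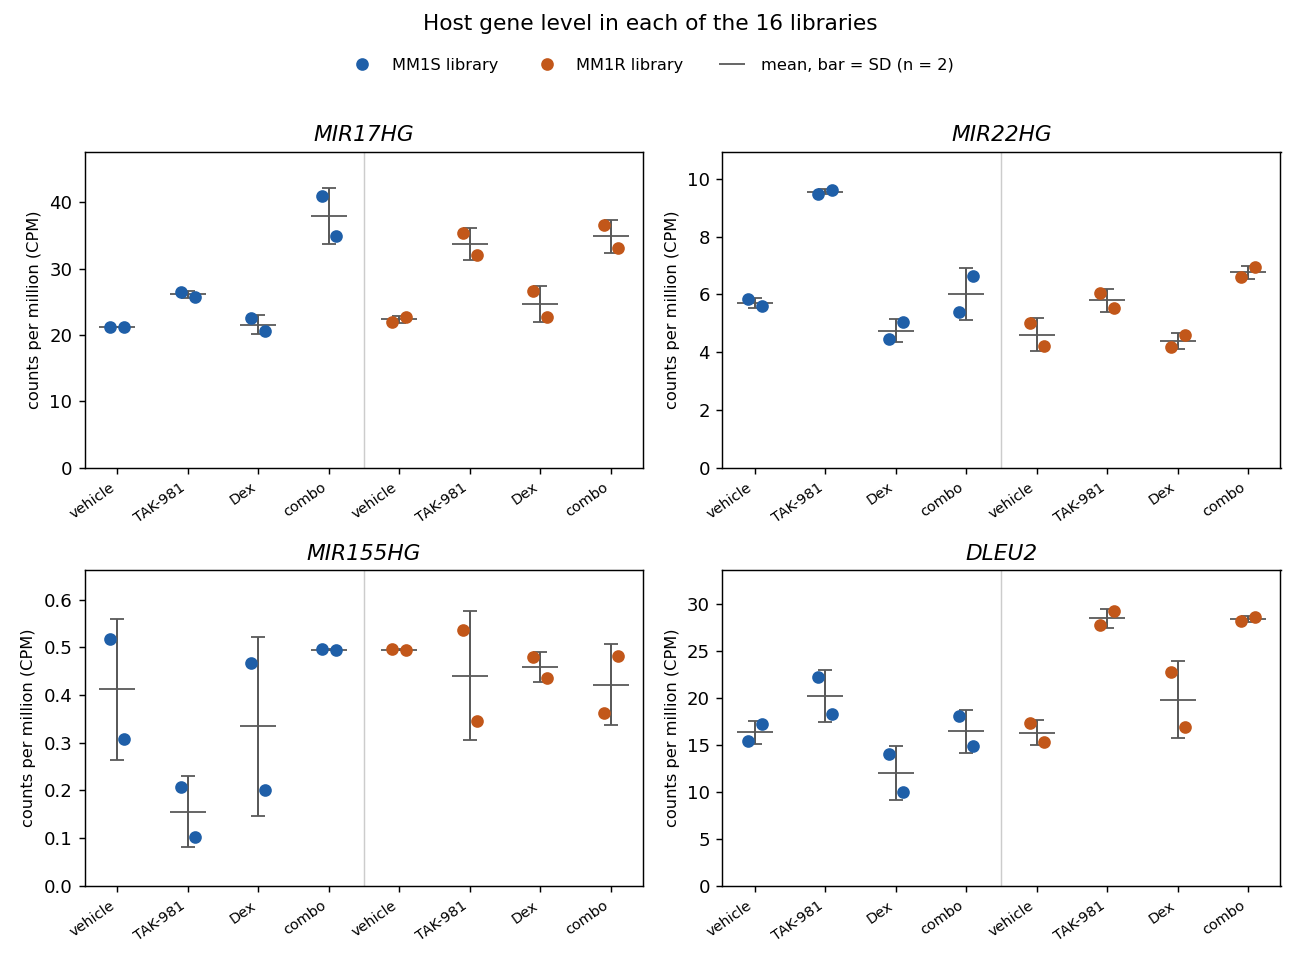
CPM of each host gene (vertical axis, starting at 0) in each library (points, blue for MM1S and orange for MM1R) by treatment, with the group mean and SD (n = 2). MIR17HG and DLEU2 were highest in the TAK-981 and combo groups of MM1R and, for MIR17HG, the combo group of MM1S, MIR22HG stood out in MM1S cells given TAK-981 alone at 9.49 and 9.63 CPM, and MIR155HG stayed under 0.6 CPM in all 16 libraries.

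TAK-981 against vehicle asked how the hosts respond to SUMOylation inhibition alone. In MM1S cells MIR17HG and MIR22HG rose, and in MM1R cells MIR17HG and DLEU2 rose, so 2 of 4 members were called in each line and none fell. In these comparisons 49% and 53.4% of all genes tested were called at an edgeR adjusted p under 0.05, so the share of members called was near the background. The bulk RNA of a culture was measured, and fewer cells of a type cannot be told apart from less RNA per cell.

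MIR17HG, the host of the miR-17-92 cluster, was at 21.2 and 21.2 CPM in the vehicle libraries of MM1S and at 26.5 and 25.7 CPM with TAK-981. In MM1R cells it was at 22.0 and 22.7 CPM with vehicle and at 35.4 and 32.0 CPM with TAK-981. Both TAK-981 libraries lay above both vehicle libraries in each line, and the gap was wider in MM1R cells. The log2 fold change was 0.30 (SE 0.10, edgeR adjusted p = 0.0203) in MM1S cells and 0.59 (SE 0.097, edgeR adjusted p = 5.3e-05) in MM1R cells. The difference between the lines in this response was 0.29 (95% interval −0.00016 to 0.59, edgeR adjusted p = 0.236) and did not pass the test. Over all genes, 4.16% passed the test of this difference. The MM1S call was lost with library size as the only scaling (0.25, edgeR adjusted p = 0.0586), in the fit of only the groups compared (0.27, edgeR adjusted p = 0.0670), without vehicle library 1 (0.30, edgeR adjusted p = 0.0905) or 2 (0.30, edgeR adjusted p = 0.0800) and without TAK-981 library 1 (0.27, edgeR adjusted p = 0.0634).

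Dex alone left MIR17HG near the vehicle level, and adding it to TAK-981 gave the highest level of MIR17HG in MM1S cells. With Dex alone, MM1S libraries were at 22.5 and 20.5 CPM and MM1R libraries at 26.6 and 22.7 CPM. The log2 fold change against vehicle was 0.02 (95% interval −0.19 to 0.24) in MM1S cells and 0.14 (95% interval −0.062 to 0.35) in MM1R cells. In combo-treated MM1S cells the libraries were at 40.9 and 34.9 CPM, above all other MM1S libraries. The log2 fold change of combo was 0.84 (SE 0.099, edgeR adjusted p = 7.67e-07) against vehicle, 0.54 (SE 0.098, edgeR adjusted p = 0.000291) against TAK-981 alone and 0.81 (SE 0.099, edgeR adjusted p = 2.37e-06) against Dex alone. These comparisons share libraries. The interaction of TAK-981 with Dex, the part of the combo change beyond the sum of the single drug changes on the log2 scale, was 0.51 (SE 0.14, edgeR adjusted p = 0.0207) in MM1S cells. Over all genes 14.9% passed that interaction test, 777 of them with a positive and 1348 with a negative value, a split that became 1033 and 908 with library size as the only scaling. The interaction call was lost in the fit of only the groups compared (0.52, edgeR adjusted p = 0.0674) and without vehicle library 1 (0.52, edgeR adjusted p = 0.0722), vehicle library 2 (0.51, edgeR adjusted p = 0.0622), Dex library 2 (0.45, edgeR adjusted p = 0.0841) or combo library 1 (0.40, edgeR adjusted p = 0.118).

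In MM1R cells the combo libraries of MIR17HG, at 36.6 and 33.1 CPM, overlapped those of TAK-981 alone. Combo exceeded vehicle by 0.64 (SE 0.096, edgeR adjusted p = 2.11e-05) and Dex alone by 0.50 (SE 0.096, edgeR adjusted p = 0.000299) on the log2 scale. Against TAK-981 alone it differed by 0.05 (95% interval −0.15 to 0.25). The interaction was −0.09 (95% interval −0.38 to 0.19), where 0% of all genes passed the test: 0 by edgeR, 0 by DESeq2 and 400 at an unadjusted p under 0.05. Ordered by mean, MIR17HG was highest in combo-treated MM1S cells (37.9 ± 4.2 CPM, SD, n = 2), followed by combo-treated MM1R cells (34.9 ± 2.5) and TAK-981-treated MM1R cells (33.7 ± 2.4), 3 groups whose libraries overlapped. TAK-981-treated MM1S cells (26.1 ± 0.58) and Dex-treated MM1R cells (24.7 ± 2.7) came next and overlapped each other. The vehicle groups and Dex-treated MM1S cells were lowest, between 21.2 and 22.3 CPM on average. The lines did not differ detectably with vehicle (0.07, 95% interval −0.14 to 0.29), a comparison in which 48.2% of all genes were called.

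The RefSeq start site window of MIR17HG is printed because its known regulators E2F1 (both lines) and MYC (MM1S cells) changed with TAK-981. It covers 250 bases before and 50 after the start site, at chr13:91347437-91347736 (GRCh38.p14, plus strand), with the CCAAT match in capitals:
MIR17HG window: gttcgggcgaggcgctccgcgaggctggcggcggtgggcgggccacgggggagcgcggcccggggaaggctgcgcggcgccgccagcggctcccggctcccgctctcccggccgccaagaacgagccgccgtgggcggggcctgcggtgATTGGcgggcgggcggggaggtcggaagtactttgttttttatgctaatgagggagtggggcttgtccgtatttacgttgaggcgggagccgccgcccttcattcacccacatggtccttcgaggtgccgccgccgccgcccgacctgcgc

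The window was 73.0% GC with 42 CpG dinucleotides, against a median of 58.7% GC over 35116 RefSeq windows. On both strands of the host windows 7 motifs were searched, and no match overlapped another: the E-box CACGTG (in 7.26% of all windows), E2F sites TTTCCCGC, TTTGGCGC, TTTCGCGC or TTTGCCGC (3.31%), the palindromic glucocorticoid response element (0.00285%), AP-1 sites TGAGTCA or TGACTCA (4.95%), the CRE TGACGTCA (1.85%), the CCAAT box CCAAT (34.6%) and the interferon-stimulated response element (3.57%). The MIR17HG window held 1 CCAAT box, on the reverse strand, with its first base at −101 from the start site. Of the other 6 motifs, the E-box and the E2F sites among them, it held none, which says only that these letters are not in this window.

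Of the 20 tested transcription factors known at these promoters, 7 rose and 6 fell with TAK-981 in MM1S cells, 5 rose and 7 fell in MM1R cells, and 7 rose and 9 fell with Dex in MM1S cells. Over all genes, 49%, 53.4% and 42.3% were called in the same comparisons. The median log2 fold changes of the factors were 0.06, −0.03 and −0.16, against 0.04, 0.00 and 0.01 over all genes tested. MYB, a progenitor cell activator, fell by 2.601 on the log2 scale with TAK-981 in MM1S cells, by 1.90 in MM1R cells and by 1.16 with Dex in MM1S cells. E2F1, a driver of S phase entry, fell by 1.59 and 1.22, and MYC fell by 0.68 in MM1S cells. MYC was not among the up to 3 factors named for MM1R cells, so its value there is not given. IRF4, the factor on which myeloma cells depend, fell by 0.66 with TAK-981 in MM1R cells and by 0.90 with Dex in MM1S cells, and BCL6, a germinal centre repressor, rose by 4.03 with Dex in MM1S cells.

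The 18 tested transcripts known as targets of the miR-17-92 cluster moved in both directions. With TAK-981, 7 rose and 7 fell in MM1S cells and 6 rose and 3 fell in MM1R cells, and with Dex in MM1S cells 5 rose and 6 fell, where 49%, 53.4% and 42.3% of all genes were called in either direction. The medians were 0.01, 0.10 and −0.00, against 0.04, 0.00 and 0.01 over all genes. STAT3, a cytokine signal transducer, rose by 0.55 (MM1S) and 0.44 (MM1R) on the log2 scale with TAK-981, and BMPR2, a BMP receptor, by 1.52 in MM1R cells. E2F1 and E2F2, members of this list as well, fell in MM1S cells by 1.59 and 0.84 with TAK-981 and by 1.13 and 0.82 with Dex. TGFBR2, the type II TGF-β receptor, rose by 0.92 with Dex.

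No gene within 200 kb of MIR17HG was tested. A row named MIR19B1, 0.786 kb long and inside the host, was at 0 counts in all 16 libraries, where 3 counts would correspond to 0.124 to 0.186 CPM. How reads over nested rows were counted is not given in the sources used here.

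DLEU2, the host of miR-15a and miR-16, rose with TAK-981 in MM1R cells and fell with Dex in MM1S cells. With vehicle its libraries were at 15.5 and 17.2 CPM in MM1S cells and at 17.3 and 15.3 CPM in MM1R cells. TAK-981 libraries were at 22.2 and 18.3 CPM in MM1S cells and at 27.8 and 29.2 CPM in MM1R cells, the latter above every library of MM1S. The log2 fold change was 0.80 (SE 0.15, edgeR adjusted p = 0.000233) in MM1R cells and 0.31 (SE 0.16, 95% interval −0.020 to 0.64, edgeR adjusted p = 0.112) in MM1S cells. Without the filter on low counts the MM1S value was 0.30 (edgeR adjusted p = 0.0179). The difference between the lines in this response was 0.50 (95% interval 0.041 to 0.95, edgeR adjusted p = 0.197), which passed only without the filter (0.49, edgeR adjusted p = 0.0232).

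With Dex, DLEU2 was at 14.05 and 9.93 CPM in MM1S cells and at 22.7 and 16.9 CPM in MM1R cells. Both Dex libraries of MM1S lay below both vehicle libraries, while those of MM1R overlapped theirs. The log2 fold change in MM1S cells was −0.45 (SE 0.17, edgeR adjusted p = 0.0387), and DLEU2 was the 1 member of 4 called, where 42.3% of all genes were. In MM1R cells it was 0.28 (95% interval −0.038 to 0.60), and 0% of genes passed: 0 by edgeR, 0 by DESeq2 and 395 at an unadjusted p under 0.05. The difference between the lines in the Dex response was tested itself and was 0.73 (SE 0.22, edgeR adjusted p = 0.0221). This was the only member to pass that test, which 28.1% of all genes passed.

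Both Dex calls on DLEU2 were lost when single libraries were left out. The fall in MM1S cells was −0.22 (edgeR adjusted p = 0.356) without Dex library 2, −0.37 (edgeR adjusted p = 0.192) without vehicle library 2 and −0.52 (edgeR adjusted p = 0.0684) without vehicle library 1. It also moved just past the threshold without either TAK-981 library of MM1R, at −0.45 (edgeR adjusted p = 0.0502 and 0.0503). The difference between the lines was 0.51 (edgeR adjusted p = 0.105) without MM1S Dex library 2, 0.50 (edgeR adjusted p = 0.128) without MM1R Dex library 1, 0.65 (edgeR adjusted p = 0.0879) without MM1S vehicle library 2 and 0.64 (edgeR adjusted p = 0.0852) without MM1R vehicle library 2.

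With combo, DLEU2 was at 28.2 and 28.7 CPM in MM1R cells, within the range of TAK-981 alone, and at 18.1 and 14.8 CPM in MM1S cells, across the vehicle range. Against vehicle the log2 fold change was 0.80 (SE 0.15, edgeR adjusted p = 0.000238) in MM1R cells and 0.01 (95% interval −0.33 to 0.35) in MM1S cells. Against Dex alone, combo was higher by 0.52 (SE 0.14, edgeR adjusted p = 0.00695) in MM1R cells and by 0.46 (SE 0.17, edgeR adjusted p = 0.0352) in MM1S cells. The MM1S call was lost without Dex library 2 (0.22, edgeR adjusted p = 0.356) or combo library 1 (0.31, edgeR adjusted p = 0.266), and the MM1R call without Dex library 2 (0.32, edgeR adjusted p = 0.124). Against TAK-981 alone the values were −0.30 (95% interval −0.64 to 0.035) in MM1S cells and −0.00 (95% interval −0.31 to 0.30) in MM1R cells. Ordered by mean, DLEU2 was highest in TAK-981-treated (28.5 ± 1.0 CPM, SD, n = 2) and combo-treated (28.4 ± 0.35) MM1R cells, which overlapped, then in TAK-981-treated MM1S (20.2 ± 2.8) and Dex-treated MM1R cells (19.8 ± 4.1), which overlapped as well. Combo-treated MM1S cells and both vehicle groups followed at 16.3 to 16.5 CPM, and Dex-treated MM1S cells were lowest at 11.99 ± 2.9 CPM.

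**Figure D2:**
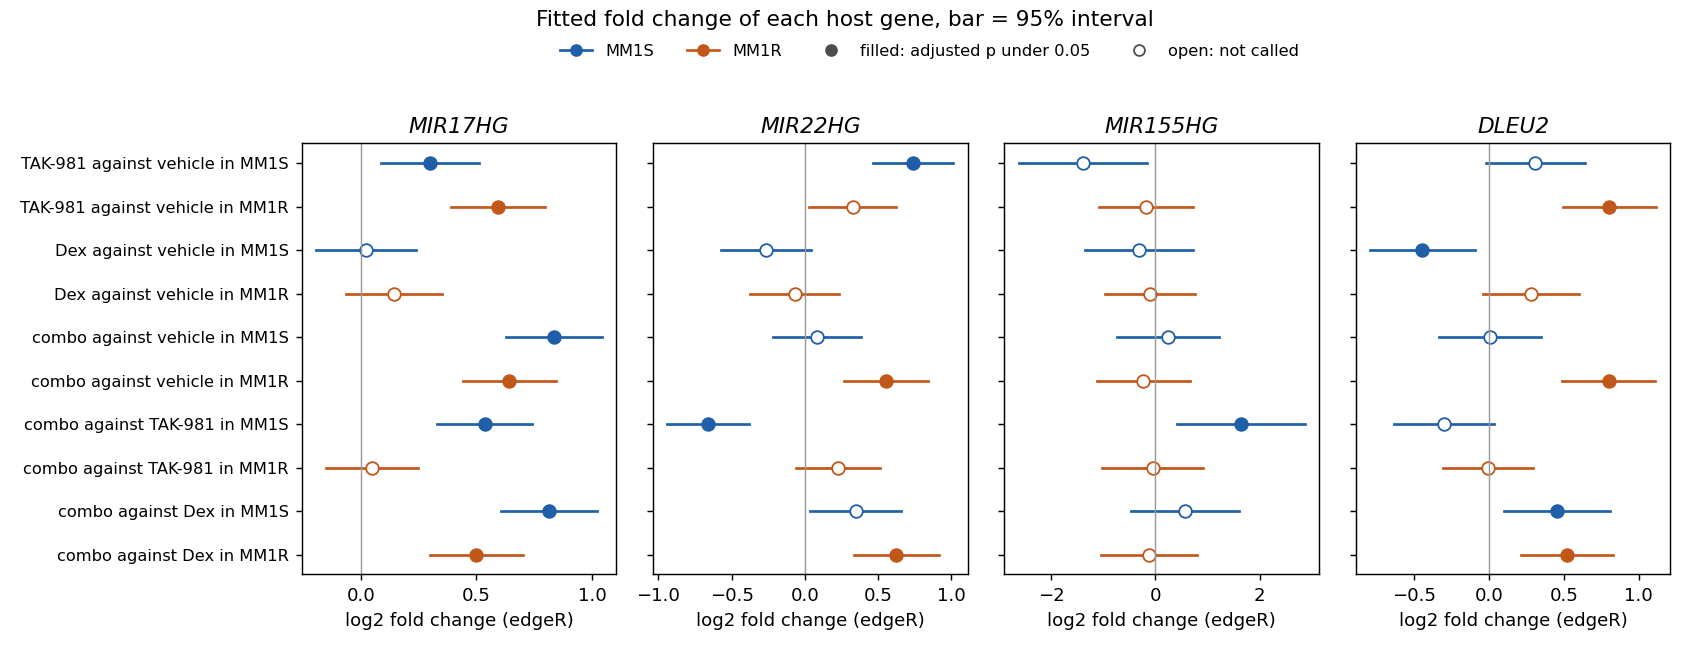
Fitted log2 fold change (horizontal axis, a separate scale for each gene) with its 95% interval for each host gene and comparison, filled where the edgeR adjusted p was under 0.05 and open otherwise. MIR17HG was called in 4 of the 5 MM1S comparisons and 3 of the 5 MM1R comparisons shown, and DLEU2 fell with Dex in MM1S cells at −0.45.

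The start site window of DLEU2 is printed beside that of MIR17HG because both genes rose with TAK-981 in MM1R cells. It lies at chr13:50125492-50125791 (GRCh38.p14, minus strand), with the E-box in capitals:
DLEU2 window: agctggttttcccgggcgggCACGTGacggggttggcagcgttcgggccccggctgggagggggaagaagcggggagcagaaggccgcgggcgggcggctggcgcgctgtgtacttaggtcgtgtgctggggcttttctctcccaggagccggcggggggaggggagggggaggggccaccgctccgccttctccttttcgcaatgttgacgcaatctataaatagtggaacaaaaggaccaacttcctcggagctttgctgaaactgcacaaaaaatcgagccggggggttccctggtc

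This window was 64.0% GC and held 1 E-box, with its first base at −230. A second RefSeq start site of DLEU2, with a window at chr13:50081992-50082291 (minus strand), held none of the 7 motifs. The letters alone do not show binding.

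DLEU2 lies in a crowded locus. DLEU1, a non-coding gene on the plus strand that overlaps DLEU2, fell with TAK-981 in both lines, with a log2 fold change of −0.62 (SE 0.15, edgeR adjusted p = 0.00247) in MM1S cells and −0.51 (SE 0.13, edgeR adjusted p = 0.00274) in MM1R cells. With Dex in MM1S cells it fell by 0.73 (SE 0.15, edgeR adjusted p = 0.000821). TRIM13, a ubiquitin ligase of the endoplasmic reticulum that overlaps DLEU2 on the plus strand, rose by 0.65 and 0.62 with TAK-981 in MM1S and MM1R cells and by 0.44 with Dex in MM1S cells. TRIM13 libraries were at 19.1 and 16.4 CPM with vehicle and at 28.6 and 27.1 CPM with TAK-981 in MM1S cells, and at 13.5 and 12.1 CPM against 20.02 and 19.3 CPM in MM1R cells. SPRYD7, 46.063 kb away, fell by 0.34 and 0.43 with TAK-981, and KPNA3, a nuclear import receptor 189.631 kb away, fell by 0.26 and 0.25. Rows for MIR16-1 and MIR3613 inside DLEU2 held 0 to 2 and 1 to 9 counts per library. Whether strand was used in counting is not given in the sources used here, and without strand, reads from DLEU2 cannot be told apart from those of DLEU1 and TRIM13 where they overlap.

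**Figure D3:**
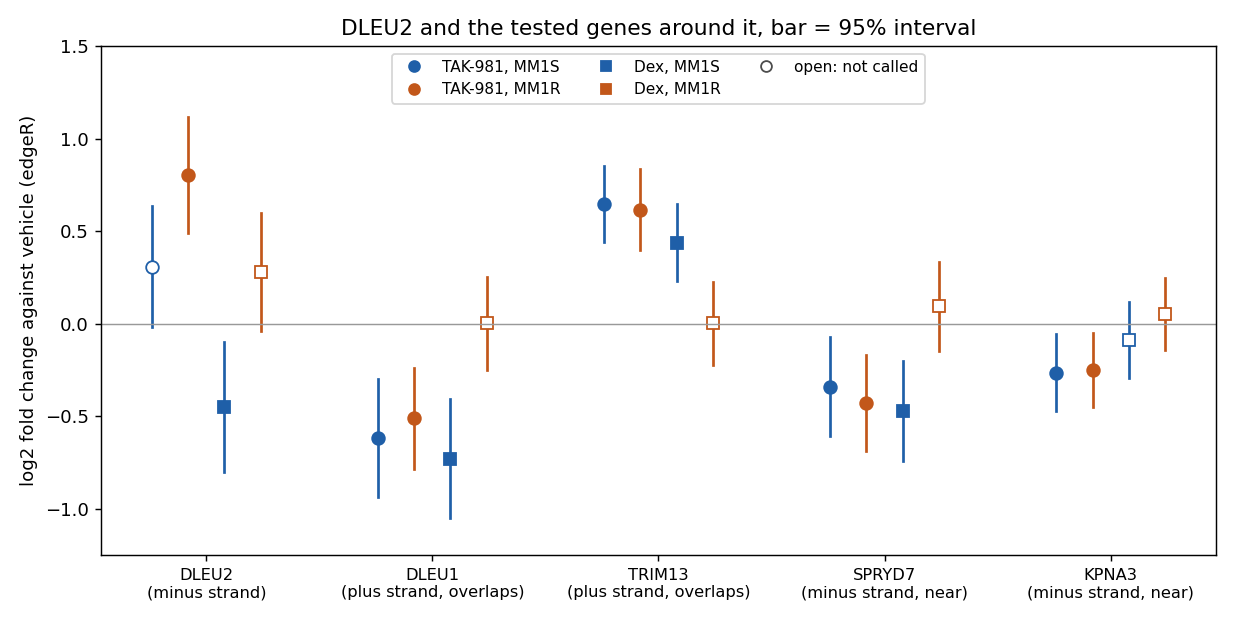
Log2 fold change against vehicle (vertical axis) with its 95% interval for DLEU2, the 2 overlapping genes on the plus strand and the 2 further tested genes nearby, for TAK-981 (circles) and Dex (squares) in MM1S (blue) and MM1R (orange), open where not called. With TAK-981 in MM1R cells DLEU2 (0.80) and TRIM13 (0.62) lay above 0 and DLEU1 (−0.51), SPRYD7 (−0.43) and KPNA3 (−0.25) below.

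Of the 16 tested transcripts known as targets of miR-15 and miR-16, 3 rose and 10 fell with TAK-981 in MM1S cells, 5 rose and 6 fell in MM1R cells, and 2 rose and 10 fell with Dex in MM1S cells. Over all genes the shares called were 49%, 53.4% and 42.3%. The medians were −0.27, −0.11 and −0.39, against 0.04, 0.00 and 0.01 over all genes tested. CHEK1, WEE1 and CDC25A, kinases and a phosphatase of the cell cycle, fell by 1.58, 1.40 and 1.45 on the log2 scale with TAK-981 in MM1S cells. In MM1R cells CDC25A fell by 1.06, while the survival genes BCL2 and MCL1 rose by 0.72 and 0.78. With Dex in MM1S cells the cyclin CCND3 rose by 1.81, the growth factor VEGFA fell by 2.30 and CHEK1 fell by 1.12.

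MIR22HG, the host of miR-22, responded most to TAK-981 alone in MM1S cells. Its MM1S libraries were at 5.83 and 5.59 CPM with vehicle and at 9.49 and 9.63 CPM with TAK-981, and no other library of the series reached these levels. The log2 fold change was 0.74 (SE 0.13, edgeR adjusted p = 0.000116). In MM1R cells the libraries were at 5.00 and 4.21 CPM with vehicle and at 6.07 and 5.52 CPM with TAK-981, a log2 fold change of 0.33 (95% interval 0.032 to 0.63, edgeR adjusted p = 0.0584). That value passed the threshold in the fit of only the groups compared (0.34, edgeR adjusted p = 0.0339), without vehicle library 1 (0.46, edgeR adjusted p = 0.0429) and without library 1 of combo-treated MM1S cells (0.33, edgeR adjusted p = 0.0498). The difference between the lines in this response was −0.41 (95% interval −0.82 to −0.0088, edgeR adjusted p = 0.225) and did not pass the test.

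MIR22HG was lower in MM1S cells with combo than with TAK-981 alone. Combo-treated MM1S libraries were at 5.39 and 6.65 CPM, below both TAK-981 libraries and across the vehicle range. Combo was lower than TAK-981 alone by 0.66 on the log2 scale (log2 fold change −0.66, SE 0.13, edgeR adjusted p = 0.000738), in a comparison where 35.1% of all genes were called. Of the other members, MIR17HG was higher there and MIR155HG was called higher on few counts. Against vehicle, combo differed by 0.08 (95% interval −0.22 to 0.38). Dex alone gave 4.46 and 5.04 CPM in MM1S cells, below both vehicle libraries, with a log2 fold change of −0.26 (95% interval −0.57 to 0.040, edgeR adjusted p = 0.154). The interaction in MM1S cells was −0.40 (95% interval −0.81 to 0.019, edgeR adjusted p = 0.192) and did not pass the test.

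In MM1R cells MIR22HG was at 6.61 and 6.94 CPM with combo, above both libraries of TAK-981 alone. Combo exceeded vehicle by 0.56 (SE 0.14, edgeR adjusted p = 0.00227) and Dex alone by 0.62 (SE 0.14, edgeR adjusted p = 0.00109). Against TAK-981 alone the value was 0.23 (95% interval −0.058 to 0.51), where 0% of genes passed: 0 by edgeR, 0 by DESeq2 and 214 at an unadjusted p under 0.05. With Dex alone MM1R libraries were at 4.20 and 4.58 CPM, and the log2 fold change was −0.07 (95% interval −0.37 to 0.23). In MM1S cells combo against Dex alone gave 0.35 (95% interval 0.036 to 0.66, edgeR adjusted p = 0.0616), which passed without combo library 1 (0.48, edgeR adjusted p = 0.0319) and with library size as the only scaling (0.37, edgeR adjusted p = 0.0459). With vehicle, MM1R against MM1S cells gave −0.31 (95% interval −0.61 to −0.015, edgeR adjusted p = 0.0769), which did not pass the test. A call was made with library size as the only scaling (−0.37, edgeR adjusted p = 0.0341) and in the fit of only the groups compared (−0.33, edgeR adjusted p = 0.0387). By mean level, TAK-981-treated MM1S cells stood alone at 9.56 ± 0.094 CPM (SD, n = 2). Combo-treated MM1R cells came next (6.77 ± 0.23) and overlapped combo-treated MM1S cells (6.02 ± 0.89), whose libraries in turn spanned those of vehicle-treated MM1S cells (5.71 ± 0.17) and overlapped those of TAK-981-treated MM1R cells (5.79 ± 0.39). Dex-treated MM1S (4.75 ± 0.41), vehicle-treated MM1R (4.60 ± 0.56) and Dex-treated MM1R cells (4.39 ± 0.27) were lowest and overlapped each other.

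The MIR22HG window is printed because this gene had its own largest change against vehicle in MM1S cells with TAK-981. It lies at chr17:1716161-1716460 (GRCh38.p14, minus strand), with the CCAAT matches in capitals:
MIR22HG window: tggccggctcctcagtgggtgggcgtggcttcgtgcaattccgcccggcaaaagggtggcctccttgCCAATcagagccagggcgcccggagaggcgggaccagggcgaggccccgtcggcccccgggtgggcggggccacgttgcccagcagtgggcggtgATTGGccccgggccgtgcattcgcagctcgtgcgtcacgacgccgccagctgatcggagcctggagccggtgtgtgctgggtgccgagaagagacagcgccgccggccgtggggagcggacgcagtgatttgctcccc

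It was 72.3% GC with 32 CpG dinucleotides and held CCAAT boxes on opposite strands, at −183 and −88. Of the other 6 motifs it held none.

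Around MIR22HG, 10 genes within 200 kb were tested. With TAK-981 4 of them rose and 2 fell in MM1S cells, and 2 rose and 3 fell in MM1R cells. Over all genes, 49% and 53.4% were called in these comparisons. WDR81, an endosomal trafficking gene 0.251 kb away on the opposite strand, was at 43.7 and 49.7 CPM with vehicle and at 65.9 and 83.7 CPM with TAK-981 in MM1S cells. It rose by 0.68 (SE 0.093, edgeR adjusted p = 6.8e-06) in MM1S cells and by 0.30 (SE 0.093, edgeR adjusted p = 0.0116) in MM1R cells with TAK-981, and by 0.55 with Dex in MM1S cells, where MIR22HG was at −0.26. SLC43A2, an amino acid transporter 82.668 kb away, rose by 1.49 and 0.70 with TAK-981 and fell by 0.60 with Dex in MM1S cells. RPA1, a subunit of the single-stranded DNA binding complex, fell by 0.55 and 0.62 with TAK-981, and SMYD4 fell by 0.41 and 0.26. PITPNA, a phosphatidylinositol transfer protein, and INPP5K, an inositol phosphatase, rose by 0.22 and 0.34 in MM1S cells, and the core spliceosome gene PRPF8 fell by 0.31 in MM1R cells. RILP (0.67 and 0.32), SCARF1 (0.49 and 1.64, on 1 to 12 counts per library) and PITPNA-AS1 (−0.21 and −0.26) did not pass the test in either line. The row of MIR22 itself, inside MIR22HG, was at 0 in all 16 libraries.

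Of the 13 tested transcripts known as miR-22 targets, 6 rose and 3 fell with TAK-981 in MM1S cells, 5 rose and 3 fell in MM1R cells, and 4 rose and 4 fell with Dex in MM1S cells, beside 49%, 53.4% and 42.3% called over all genes. The medians were 0.14, 0.07 and −0.03, and those of all genes 0.04, 0.00 and 0.01. NET1 fell by 0.66 and 0.54 with TAK-981 and by 0.32 with Dex, and HMGB1, a chromatin protein, fell by 0.65 with TAK-981 and by 0.45 with Dex in MM1S cells. The histone deacetylase HDAC4 rose by 0.52 in MM1S cells, and TET2, a DNA demethylation enzyme, and PPARA, a nuclear receptor, rose by 0.92 and 0.53 in MM1R cells. The estrogen receptor ESR1 fell by 1.05 with Dex in MM1S cells.

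MIR155HG was near the limit of detection in both lines. Its counts in the 2 libraries of each MM1S group were 11 and 6 with vehicle, 4 and 2 with TAK-981, 9 and 4 with Dex and 8 and 9 with combo. In MM1R cells they were 12 and 12, 10 and 7, 11 and 10, and 8 and 10 in the same order. Summed over the 8 libraries of a line, 53 counts in MM1S gave 0.347 CPM (95% exact Poisson interval 0.260 to 0.453) and 80 counts in MM1R gave 0.455 CPM (0.360 to 0.566). These intervals cover counting error only.

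The lowest level was in TAK-981-treated MM1S cells, where 6 counts stood against 17 with vehicle. Their ratio was 0.372, with a counting interval of 0.12 to 0.989. The fitted log2 fold change was −1.39 (SE 0.59, edgeR adjusted p = 0.0584), and it passed the threshold only without vehicle library 2 (−1.70, edgeR adjusted p = 0.0485). Combo against TAK-981 alone in MM1S cells, 17 counts against 6, was called higher at 1.64 (SE 0.59, edgeR adjusted p = 0.0366), with a ratio of 3.19 and a counting interval of 1.20 to 9.89. This call was lost without the filter on low counts (1.64, edgeR adjusted p = 0.0723), in DESeq2 (1.68, adjusted p = 0.140) and without TAK-981 library 2 (1.23, edgeR adjusted p = 0.210), combo library 1 (1.64, edgeR adjusted p = 0.104) or combo library 2 (1.64, edgeR adjusted p = 0.112). The interaction in MM1S cells was 1.96 (SE 0.77, edgeR adjusted p = 0.0967), which passed without Dex library 1 (2.66, edgeR adjusted p = 0.0406). In the other comparisons of MIR155HG no change was detectable at this depth: in MM1R cells TAK-981 gave −0.18 (95% interval −1.08 to 0.73) and Dex −0.11 (95% interval −0.97 to 0.75). By mean CPM the 8 groups ran from 0.155 ± 0.074 (SD, n = 2) in TAK-981-treated MM1S cells to 0.495 ± 0.00098 in vehicle-treated MM1R cells. The other 6 groups lay between these at 0.334 to 0.495 CPM.

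The MIR155HG start site window held an AP-1 site at −60 and an interferon-stimulated response element at −213, both on the forward strand, and was 56.0% GC. The row of MIR155 inside the host was at 0 counts in all 16 libraries. Of the 5 tested genes within 200 kb, 2 fell with TAK-981 in each line and none rose. Over all genes, 49% and 53.4% were called in MM1S and MM1R cells. MRPL39, a mitochondrial ribosomal protein gene, fell by 0.56 and 0.43, and ATP5J, a subunit of ATP synthase, fell by 0.51 and 0.48. LINC00515 (−0.43 and 0.52), JAM2 (−0.71 and −0.07) and GABPA (−0.09 and −0.12) did not pass the test. Of the 16 tested transcripts known as miR-155 targets, 9 rose and 2 fell with TAK-981 in each line, and 8 rose and 2 fell with Dex in MM1S cells, against 49%, 53.4% and 42.3% of all genes called in MM1S, in MM1R and with Dex. The medians were 0.21, 0.19 and 0.19, against 0.04, 0.00 and 0.01 over all genes tested. The kinase IKBKE rose by 0.63 and 0.86, the plasma cell oncogene MAF by 0.56 and 0.67 and TP53INP1, a p53-induced stress gene, by 0.45 in MM1S cells, while the transcription factor ETS1 fell by 0.79 in MM1R cells. With Dex, MAF rose by 0.57, the phosphatase gene INPP5D by 0.49 and FOXO3 by 0.38.

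Counted over the remaining comparisons, 1 of 4 members was called for combo against vehicle in MM1S cells (60.3% of all genes) and 3 in MM1R cells (51.5%). For combo against Dex alone, 2 were called in MM1S cells (47.6%) and 3 in MM1R cells (48.4%). In these comparisons every call on a member was higher in combo. No member was called for Dex in MM1R cells (0% of all genes), for combo against TAK-981 in MM1R cells (0%), for the lines with vehicle (48.2%) or for the line difference in the TAK-981 response (4.16%). Over the 16 libraries the Pearson r of log2 CPM was 0.63 for MIR17HG with DLEU2 and −0.61 for MIR22HG with MIR155HG, and from 0.14 to 0.32 for the other pairs. These are descriptions over libraries that share 8 treatments, and the second includes MIR155HG at a few counts.

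The tested genes whose log2 CPM ran most closely with each host over the 16 libraries are given with Pearson r as a description. For MIR17HG they were TANC2, a synaptic scaffold gene (0.97), NSRP1, a splicing regulator (0.96), STAT4, a cytokine signal transducer (0.95), PLCB1, a phospholipase (0.95), and NEB, the giant muscle protein nebulin (0.94). TANC2 rose by 0.42 and 0.61 with TAK-981 in MM1S and MM1R cells. For DLEU2 they were POU2F1, the octamer factor OCT1 (0.97), CEP85L (0.96), BCAT1, a branched-chain aminotransferase (0.96), DZIP3 (0.95) and REPS2 (0.94). POU2F1 rose by 0.45 in MM1R cells with TAK-981 and fell by 0.28 with Dex in MM1S cells. For MIR22HG they were the collagen COL18A1 (0.96), STARD10, a lipid transfer protein (0.95), the ligand WNT10A (0.93), COL20A1 (0.93) and ST3GAL5, a ganglioside synthase (0.92). STARD10 rose by 0.79 and 0.31 with TAK-981 and fell by 0.46 with Dex in MM1S cells. For MIR155HG they were ELP4 (0.89), REV3L and REV1, polymerases of translesion synthesis (0.88 and 0.87), NR2C1 (0.86) and CEP63 (0.85), at lower r and on few counts.

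Other non-coding miR hosts were compared as a group, since 31 of 51 listed genes were in the table and 17 were tested. With TAK-981, 8 of the 17 rose and 3 fell in MM1S cells and 8 rose and 1 fell in MM1R cells. Of all genes tested, 49% and 53.4% were called. These were 3586 higher and 3374 lower in MM1S cells, and 3666 higher and 3926 lower in MM1R cells. The median log2 fold changes were 0.35 and 0.86, against 0.04 and 0.00 over all genes tested, and they were the same with the genes at 3 counts or fewer set at their bound. With Dex in MM1S cells 1 rose and 4 fell, where 42.3% of all genes were called. MIR99AHG, the host of miR-99a and let-7c, had 42 and 44 counts with vehicle and 173 and 143 with TAK-981 in MM1S cells, and 62 and 40 against 140 and 170 in MM1R cells, a rise of 1.95 and 1.91. NR2F1-AS1 had 4 and 4 counts with vehicle and 39 and 26 with TAK-981 in MM1S cells. LINC-PINT, a p53-induced transcript, rose by 1.34 in MM1R cells. EGFEM1P, in which miR-551b lies, fell by 1.47 and 1.44 with TAK-981 and by 1.16 with Dex. MIR210HG, the host of the hypoxia miR miR-210, fell by 3.61 with Dex in MM1S cells, from 469 and 352 to 28 and 36 counts, and MIR503HG fell by 1.14.

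The 36 tested protein-coding genes that hold a miR moved in both directions. With TAK-981, 7 rose and 13 fell in MM1S cells and 7 rose and 11 fell in MM1R cells, and with Dex in MM1S cells 8 rose and 11 fell. The share called over all genes was 49%, 53.4% and 42.3%. The medians of the hosts were −0.01, −0.03 and −0.14, against 0.04, 0.00 and 0.01 over all genes. MCM7, a replicative helicase subunit whose intron holds miR-25 with the seed of miR-92a, fell by 0.99 and 0.95 with TAK-981 in MM1S and MM1R cells. MIR17HG, with miR-92a itself, rose in both lines. CTDSPL, a phosphatase gene that holds miR-26a, fell by 2.35 and 1.84. SREBF1, the lipid synthesis regulator that holds miR-33b, fell by 0.81 and 0.57 with TAK-981 and by 2.46 with Dex. With Dex in MM1S cells SKA2, a kinetochore gene, fell by 1.02 and PANK3, a pantothenate kinase, rose by 0.77.

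**Figure D4:**
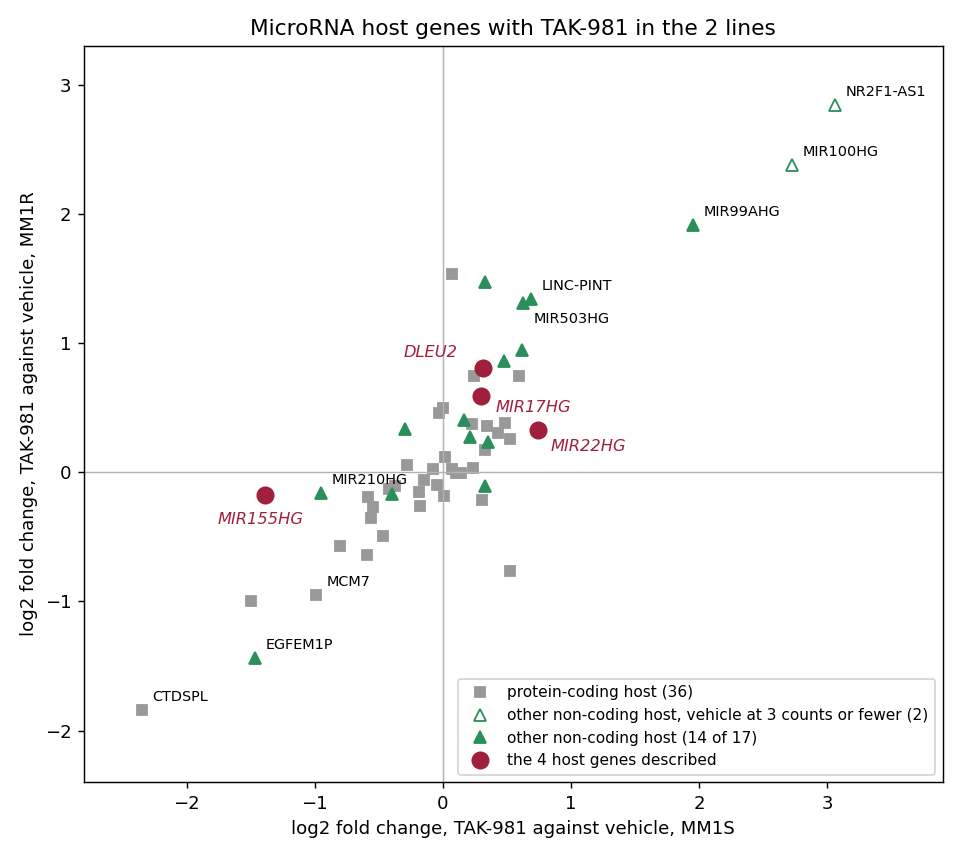
Log2 fold change with TAK-981 against vehicle in MM1S (horizontal axis) and MM1R (vertical axis) for the 4 host genes described (red circles), other tested non-coding hosts (green triangles, open where the vehicle group of a line was at 3 counts or fewer) and 36 protein-coding hosts (grey squares). MIR4697HG, at 0 and 0 counts with vehicle and 20 and 34 with TAK-981 in MM1S, is not drawn. MIR17HG, MIR22HG and DLEU2 lie above 0 on both axes, at values up to 0.80.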

How the data were processed

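The authors deposited 1 table of raw read counts for 23354 genes in 16 libraries, with symbol, position, strand and length, and it was used as deposited. The submitters' processing notes name bcl2fastq 2.18.0.12, STAR 2.6.0, HTSeq 0.6.0, edgeR 3.28.1 and build hg19, and the gene annotation and the strand setting of the counting are not given in the sources used here. Genes were kept with filterByExpr (14215), scaled with TMM, and fitted in edgeR 4.0.16 (R 4.3.3, limma 3.58.1) with a robust quasi-likelihood model with 1 term per group over all 16 libraries. Each of 15 contrasts was tested with Benjamini-Hochberg adjustment over all genes at a threshold of 0.05. CPM uses TMM library sizes, and log2 CPM a prior count of 2. Bounds used a floor of 3 counts per library. Alternatives were RLE scaling, library size only, no filter, a replicate block, DESeq2 1.42.0, only the groups compared, and leaving out each library. The step was tested on simulated counts.

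The members and the gene lists were chosen with earlier results of these data known, and the lists, markers and motifs were written from general knowledge. Named were the members, tested genes within 200 kb, miR rows inside a member, the 5 tested genes with the highest Pearson r, up to 3 genes per list with the smallest adjusted p for TAK-981 in each line and for Dex in MM1S, and MCM7. Sequences are from RefSeq and transcripts from GENCODE 29, both on GRCh38 (patch 14), matched by symbol or miR name, and no coordinates were converted between builds.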

Additional observations from a re-analysis of the deposited data

Results flagged for a closer look

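The response of DLEU2 to Dex differed between the lines by a direct test: the MM1R log2 fold change minus that of MM1S was 0.73 (edgeR adjusted p = 0.0221). DLEU2 fell in MM1S cells (−0.45) and was at 0.28 in MM1R cells, where it was not called. Both Dex groups had replicates that lay apart, at 14.05 and 9.93 CPM in MM1S and 22.7 and 16.9 CPM in MM1R, and the difference ranged from 0.50 to 1.00 when 1 library was left out, with the call lost in 4 of these fits (edgeR adjusted p from 0.0852 to 0.128). Over all genes 28.1% passed this test. The part of this spread in the result was not tested.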

How the results depend on the processing

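Of 60 member values, the alternatives gave 588 values with the same direction and side of the threshold, 32 reversed, 12 newly past the threshold and 25 no longer past it. Reversals were of values that were not called. In fits without a library, the lone sample left in a group is assumed to vary like the other groups. The cause of the changes was not tested.

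With library size as the only scaling, MIR17HG with TAK-981 in MM1S cells was 0.25 (no longer called) and with Dex −0.0055, and MIR22HG was called for combo against Dex in MM1S cells (0.37) and between the lines (−0.37). In the fit of only the groups compared, MIR17HG lost its calls with TAK-981 (0.27) and for the interaction (0.52) in MM1S cells, MIR22HG gained calls with TAK-981 in MM1R cells (0.34) and between the lines (−0.33), and DLEU2 was −0.0094 for combo in MM1S cells. MIR155HG did not pass the filter in some of those fits and has no value there. Without the filter on low counts, MIR155HG for combo against TAK-981 in MM1S cells was 1.64 and no longer called, and DLEU2 was called with TAK-981 in MM1S cells (0.30), for combo against TAK-981 in MM1S cells (−0.30) and for the line difference with TAK-981 (0.49). DESeq2 gave 1.68 for MIR155HG, not called, and for DLEU2 −0.0042 for combo in MM1S cells and 0.0078 between the lines, which RLE gave as −0.0055 and 0.0086.

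The labels number the replicates 1 and 2 in every group. Same-numbered libraries deviated together only weakly (correlation of deviations 0.016 to 0.26 in MM1S and −0.013 to 0.082 in MM1R). The labels do not say whether the numbers pair the libraries, and these correlations do not settle it. With the replicate block, DLEU2 was called with TAK-981 in MM1S cells (0.31, edgeR adjusted p = 0.0498), and no other call on a member changed.

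Leaving out 1 library gave, for MIR17HG, 0.27 to 0.32 with TAK-981 in MM1S, −0.047 to 0.081 with Dex in MM1S, −0.026 to 0.12 for combo against TAK-981 in MM1R, and 0.40 to 0.63 and −0.20 to 0.024 for the interaction in MM1S and MM1R. For MIR22HG it gave 0.21 to 0.46 with TAK-981 in MM1R, −0.19 to 0.062 with Dex in MM1R, and −0.083 to 0.22 for combo against vehicle and 0.18 to 0.48 for combo against Dex in MM1S. For DLEU2 it gave −0.72 to −0.22 with Dex in MM1S, −0.14 to 0.15 for combo in MM1S, −0.039 to 0.034 for combo against TAK-981 in MM1R, 0.22 to 0.72 and 0.32 to 0.75 for combo against Dex in MM1S and MM1R, −0.090 to 0.082 between the lines, 0.50 to 1.00 for the line difference with Dex and −0.080 to 0.41 for the interaction in MM1S. For MIR155HG it gave −1.96 to −0.96 and −0.52 to 0.11 with TAK-981 in MM1S and MM1R, −1.02 to 0.15 with Dex in MM1S, −0.063 to 0.67 for combo in MM1S, 1.23 to 2.20 and −0.35 to 0.28 for combo against TAK-981 in MM1S and MM1R, −0.34 to 0.068 for combo against Dex in MM1R, −0.061 to 0.68 between the lines, −0.26 to 0.91 for the line difference with Dex, and 1.48 to 2.66 and −0.24 to 0.39 for the interaction in MM1S and MM1R. Leaving out a library outside the comparison changed 4 of 656 values.

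Over all genes, the line difference with TAK-981 called 592 genes, 1313 without the filter and 2061 with the replicate block. The interaction in MM1S called 2125, 3579 with the block and 779 in the fit of only the groups compared. Without the filter 30 genes were called for Dex in MM1R, 9 for combo against TAK-981 and 19 for the interaction there, each 0 otherwise except 3 for combo against TAK-981 in the fit of only the groups compared. List counts moved by over 1.5 times in 32 of 420 alternatives. Depth limits MIR155HG, at 2 to 12 counts per library.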

Other observations

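The row MIR663AHG, the host of miR-663a, took from 0.494% to 0.996% of all counts of a library and was not called with TAK-981 in either line or with Dex in MM1S cells. MIR210HG was lower in vehicle-treated MM1R than MM1S cells, with a log2 difference of −2.59 (edgeR adjusted p = 3.36e-05), and MIRLET7BHG, the host of let-7b, with −1.43 (edgeR adjusted p = 6.47e-05). Of the 17 tested non-coding hosts outside the 4 described, 1 was higher and 7 were lower in MM1R cells with vehicle, with a median of −0.39 against 0.01 over all genes tested, and 48.2% of all genes were called, so the share called was near the background. These genes were chosen after their values were seen.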
